A study of Mus musculus with 6 samples.

Results

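Potassium channel genes were read in the mouse suprachiasmatic nucleus (SCN) as every probe set whose gene symbol on the array platform begins with Kcn. The rule found 90 probe sets of 62 genes among 22626 probe sets of 12393 genes, and it takes in the pore-forming subunits and the auxiliary subunits that carry a Kcn symbol. The SCN was captured by laser from adult male C57BL/6 mice of 2 to 4 months, kept under 14 hours of light and 10 of dark, at the end of a 30-minute light pulse of 2400 lux or of a sham light pulse in the dark. Both started 1 hour after lights off, so the tissue dates from the early night, 1.5 hours after lights off. The start is also named Zeitgeber time 13, which, counted from lights on in such a cycle, would fall before lights off, and this difference could not be settled. Each group had 3 Affymetrix arrays, and each array held RNA pooled from 3 mice, copied in 2 rounds of linear amplification from 1 ng. Whether the pools were otherwise separate is not given in the sources used here, and the p-values speak only of the spread from pool to pool. Tissue RNA also does not tell fewer cells of a type from less transcript per cell.

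Potassium channels let potassium leave or enter a cell and so set its resting potential, the width of its action potentials and the pause between them. SCN neurons fire faster by day than by night, and potassium currents take part in that rhythm. The fast delayed rectifier and A-type currents pass through voltage-gated alpha subunits of the Kcnc and Kcnd genes, and the large-conductance calcium-activated (BK) current, which is larger at night in the SCN, passes through the product of Kcnma1. Inward rectifiers (Kcnj) and tandem-pore leak channels (Kcnk) act near rest, and auxiliary subunits (Kcnab, Kcne, Kcnip, Kcnmb) change the gating or the transport of the alpha subunits.

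Transcripts of 14 channel genes were high enough on the arrays to be tested, and none of them passed the test of light pulse against sham light pulse. The deposited hybridization signals are on a linear scale of arbitrary units. Probe sets were compared only if they were among the 10000 whose third-highest signal (rank 3) was largest, a ranking that ignores which arrays are which. The cutoff in signal came to 128.1. That filter kept 14 of the 90 Kcn probe sets (15.6%), each from a different gene, against 44.2% of all probe sets. With the rank 2 or the rank 4 signal in its place, 15 or 16 Kcn probe sets were kept.

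The position of a transcript on an array was expressed as its array percentile, the share of all probe sets with a lower signal on that array. Probe sets differ in how well they hybridize, so a percentile says where a signal stands among signals and does not rank transcripts by their number. On all 6 arrays 3 Kcn probe sets lay above percentile 75 (3.33%, against 19.2% of all probe sets), those of Kcnj10, Kcnk1 and Kcnd2. A further 8 lay above percentile 50 on all 6 arrays (8.89%, against 18.1%), which makes 11 in all (12.2%, against 37.3%). Below percentile 50 on all 6 arrays lay 49 (54.4%, against 33.7%), and the other 30 crossed it (33.3%, against 29.0%). Voltage-gated calcium and sodium channel genes, by the symbols Cacn and Scn, had 11 of 47 probe sets kept (23.4%), and GABA and glutamate receptor genes had 10 of 35 (28.6%). These shares describe probe sets, several of which may read the same gene, and the differences between them were not tested.

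**Figure D1:**
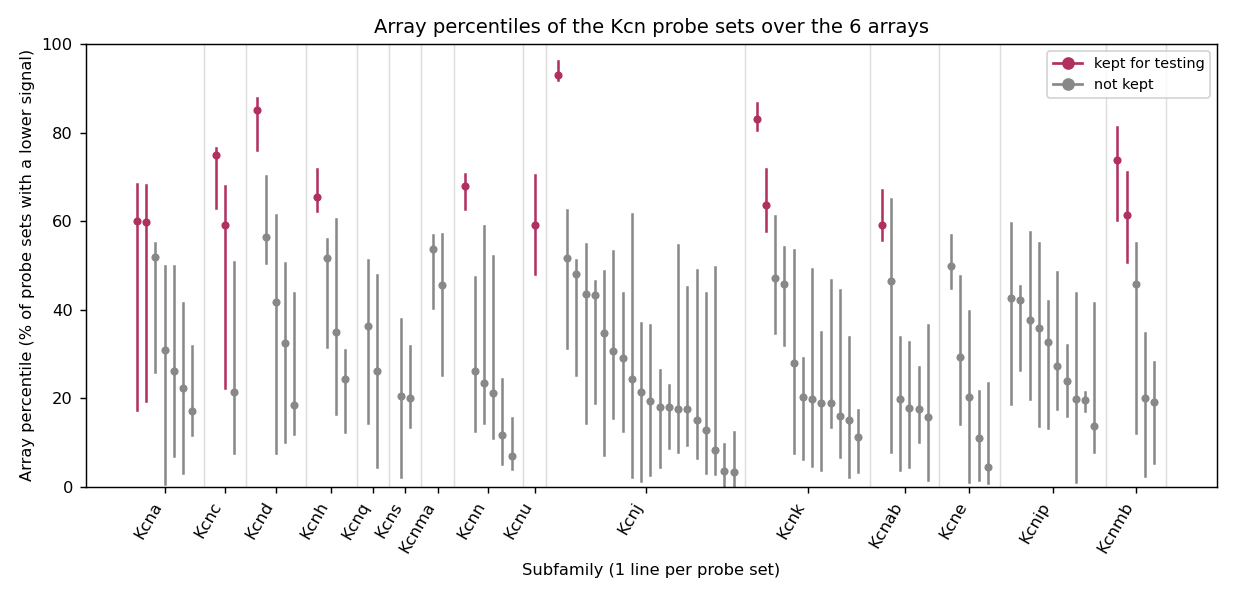
Array percentile (percent of the 22626 probe sets with a lower signal) of the 90 Kcn probe sets, grouped by subfamily. Each line runs from the lowest to the highest of the 6 arrays and each point is the median. Of the 14 kept probe sets, that of Kcnj10 stands at 92.0 to 96.0 on all arrays, while most probe sets that were not kept spread widely below the middle.

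The captured tissue carried 8 markers of SCN neurons, Vip, Grp, Avp, Calb1, Penk, Gad1, Clock and Arntl. The study had already reported strong signals of these 8 on the same arrays, so their reading here is no separate check of the capture. All 8 were kept and above 128.1 on all 6 arrays. Their summed signals were 71608 to 94253 (light pulse) and 60788 to 72053 (sham light pulse), the largest part from Vip (30271 to 64589 over all arrays). The light response was present, since Fos, Egr1, Nr4a1 and Dusp1 all rose, with log2 fold changes of 4.94, 4.84, 3.37 and 2.66 (standard errors 0.31 to 0.34, adjusted p from limma at most 0.00400). Glia and vessels were present too: 8 of 9 astrocyte, 5 of 6 oligodendrocyte, 5 of 8 microglia and 7 of 8 endothelial and pericyte markers measured were kept. The median correlation with the other arrays was lowest for light pulse replicate 3, 0.902, with sham light pulse replicate 2 close to it at 0.907. The rest had 0.919 to 0.925. By the summed signal of choroid plexus markers light pulse replicate 3 stood apart, but not by every marker. Ttr, Folr1, Kl, Aqp1, Slc4a5 and Sostdc1 were highest on that array, while Otx2, Cldn2, Col8a1, Trpv4 and Msx1 were not. The summed signal of 11 choroid plexus markers was 111010 on that array, nearly all of it from Ttr (transthyretin) at 110323, against 448 to 637 on the other light pulse arrays and 490 to 612 on the sham light pulse arrays.

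Among the voltage-gated alpha subunits, 6 of 20 genes were kept, and the A-type subunit gene Kcnd2 stood at the highest array percentiles of them (76.1 to 87.9). Kcnd2 had signals of 570, 420 and 1124 on the light pulse arrays, against 779, 1204 and 1046 on the sham light pulse arrays. The 2 lowest values were light pulse values, but light pulse replicate 3 lay within the sham light pulse range and the groups overlapped. Its log2 fold change was -0.62 (standard error 0.37, 95% interval -1.41 to 0.17), and it did not pass limma's test over the 10000 probe sets (adjusted p = 0.963). The log2 fold change from limma was -0.31 without light pulse replicate 2 (unadjusted p = 0.414) and -1.02 without light pulse replicate 3 (unadjusted p = 0.0103, adjusted p = 0.945). Of the other Kcnd genes, Kcnd1 had signals from 4.9 to 90.4 and Kcnd3 from 5.9 to 75.2, and neither was kept.

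Both Kcnc genes on the array were kept. Kcnc4, which encodes a fast-inactivating member of the subfamily and is read by a probe set whose suffix marks shared targets, had 185, 392 and 370 in light pulse SCN and 424, 229 and 413 in sham light pulse SCN. These ranges overlapped almost fully, at a log2 fold change of -0.19 (standard error 0.40, 95% interval -1.06 to 0.67). The second Kcnc4 probe set, without that suffix, had only 5.7 to 103.4 over all 6 arrays and was not kept. Kcnc1, an alpha subunit of the fast delayed rectifier, had 203, 119 and 249 in light pulse SCN and 133, 15.6 and 149 in sham light pulse SCN. Its log2 fold change of 1.43 (standard error 0.85, 95% interval -0.39 to 3.25, adjusted p = 0.963 from limma) rested on the sham light pulse array at 15.6. Without that array, sham light pulse replicate 2, it was 0.37, and with an offset of 50 added to every signal it was 0.81. Kcnc2, another subunit of this current, was not analysed here.

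The Kcna genes encode delayed rectifier and A-type subunits, and 2 of 7 were kept with a single low array each. Kcna1 had 230, 102 and 11.8 after the light pulse, against 240, 130 and 167 after the sham light pulse. Kcna5 had 170, 136 and 13.6 after the light pulse, against 161, 77.5 and 253 after the sham light pulse. In both, light pulse replicate 3 stood far below the other 5 arrays. The log2 fold changes were -1.41 for Kcna1 (standard error 0.94) and -1.11 for Kcna5 (standard error 0.95), and neither passed limma's test (adjusted p = 0.963 in both). Without light pulse replicate 3 they were -0.18 and 0.050, and with an offset of 50 added to every signal they were -0.70 and -0.55. The other 5 genes, Kcna2, Kcna3, Kcna4, Kcna6 and Kcna7, had signals between 1.9 and 123.4.

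Kcnh2 encodes the ERG channel, which closes slowly on repolarization and is best known from the heart. It had 261, 187 and 184 in light pulse SCN and 232, 169 and 325 in sham light pulse SCN, with overlapping groups and a log2 fold change of -0.17 (standard error 0.41). Kcnh3, a relative from the ELK branch, was not kept, but its signals of 128, 110 and 136 on the light pulse arrays lay all above the 34.3, 51.6 and 81.0 on the sham light pulse arrays. Of its 6 signals 1 exceeded 128.1, so no fold is given. Kcnh1, Kcnh7, the Kv7 genes Kcnq1 and Kcnq5 and the silent subunit genes Kcns1 and Kcns2 were not kept either, with signals from 2.0 to 162.1.

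Among the calcium-activated channels and their relatives, Kcnn2 had the least spread of all 14 genes, its highest signal being 1.52 times its lowest. Kcnn2 encodes an SK channel, which opens on calcium alone and carries the afterhyperpolarization that follows a spike. Its signals were 247, 243 and 248 on the light pulse arrays and 218, 270 and 178 on the sham light pulse arrays. The light pulse arrays all lay inside the sham light pulse range. The log2 fold change was 0.17, with a 95% interval from -0.64 to 0.98, inside 2-fold in both directions. Kcnu1 encodes a BK relative known from sperm, and its probe set had 139, 106 and 285 in light pulse SCN and 77.8, 166 and 159 in sham light pulse SCN. The groups overlapped and the log2 fold change was 0.35 (standard error 0.57).

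Kcnma1, the BK alpha subunit gene, was near the filter and was not kept. Its probe set of higher mean signal had 113, 59.5 and 69.5 after the light pulse, against 122, 108 and 118 after the sham light pulse, at array percentiles from 40.3 to 56.8. The second had 78.7, 74.2 and 143 after the light pulse, against 21.7, 108 and 29.1 after the sham light pulse. The probe sets leaned opposite ways, and no change of Kcnma1 is drawn from either. With the rank 4 signal as the filter the first was kept. Of the remaining SK and IK genes, Kcnn3 stayed between 3.0 and 8.1 and Kcnn4 between 3.7 and 94.3. Kcnn1 reached 150.9 on light pulse replicate 1 by 1 of its 2 probe sets, against 6.6 to 33.4 on the other 5 arrays.

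Of the 3 BK beta subunit genes, 2 were kept. Kcnmb4, the beta subunit gene of neuronal BK channels, had 263, 625 and 166 in light pulse SCN and 397, 301 and 434 in sham light pulse SCN. The light pulse values spread on either side of the sham light pulse values, for a log2 fold change of -0.31 (standard error 0.45). Kcnmb2, whose product makes BK channels inactivate, had 297, 147 and 268 in light pulse SCN and 102, 169 and 86.8 in sham light pulse SCN. It had the smallest unadjusted p of the 14 genes, 0.0718, at a log2 fold change of 0.99 (standard error 0.51, 95% interval -0.10 to 2.08), and the groups overlapped through a single array on each side. The adjusted p from limma was 0.963. A second Kcnmb2 probe set had 6.0 to 127.8 over all 6 arrays and was not kept. Kcnmb1, the smooth muscle beta subunit gene, had signals from 2.1 to 51.7.

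Of the other auxiliary subunits only Kcnab2 was kept. Kcnab2 encodes a cytoplasmic beta subunit that binds Kcna channels, and it had 130, 142 and 238 on the light pulse arrays, against 169, 114 and 146 on the sham light pulse arrays. The groups overlapped, at a log2 fold change of 0.22 (standard error 0.50). The calcium-binding partners of Kcnd channels, Kcnip1 to Kcnip4, had 10 probe sets and none was kept, with signals from 3.0 to 141.2. The 5 Kcne genes, single-span beta subunits, ranged from 1.5 to 127.7. Kcnab1 and Kcnab3, the other beta subunit genes for Kcna channels, ranged from 2.9 to 187.9. Kcne4 had the most even signals of the Kcne genes, 79.0 to 127.7, all below the cutoff.

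Kcnj10 stood at the highest array percentile of all Kcn genes on every array. It encodes the inward rectifier with which astrocytes take up potassium that neurons release. Signals were 2463, 2617 and 2018 on the light pulse arrays, against 2203, 2470 and 4659 on the sham light pulse arrays, at array percentiles from 92.0 to 96.0. Sham light pulse replicate 3 was high and the other 5 arrays lay close together. The log2 fold change was -0.32 (standard error 0.30, 95% interval -0.97 to 0.32), and without sham light pulse replicate 3 it was 0.011. The summed signal of the 9 astrocyte markers ran from 49741 to 55100 (light pulse) and from 46671 to 54221 (sham light pulse). The largest signals in it were those of Gja1, Aldoc and Glul. On sham light pulse replicate 3 the sum was lowest, at 46671. Gja1 and Glul were also at their lowest there, 14750 and 9391, while Aldoc, at 15410, was not. Gfap, Aqp4, Slc1a3, Slc1a2, S100b and Fgfr3 were not at their lowest on that array either. The part of astrocyte content in the values of Kcnj10 was not tested.

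The other 12 inward rectifier genes had 19 probe sets, and none was kept. Kcnj3, Kcnj5, Kcnj6 and Kcnj9 encode subunits of the channels that G protein-coupled receptors open, and they had signals from 2.5 to 179.9. Kcnj6 alone had 5 probe sets, and the highest of their 30 signals was 128.7. The probe set of Kcnj9 with the highest mean signal had 180, 97.5 and 114 after the light pulse, against 101, 35.6 and 67.7 after the sham light pulse. These overlapped. A second Kcnj9 probe set had 3.5, 2.5 and 176 after the light pulse, against 29.9, 11.8 and 63.8 after the sham light pulse. The third ranged from 4.6 to 70.8. Kcnj11, a pore subunit of channels closed by ATP, stayed between 3.9 and 24.4. Kcnj2, Kcnj4, Kcnj12 and Kcnj15 ranged from 1.3 to 90.8. Kcnj14, an inward rectifier gene of neurons, had 2.6, 7.6 and 11.2 after the light pulse, against 23.8, 33.9 and 43.2 after the sham light pulse, which did not overlap but lay far below the cutoff.

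Kcnj8 encodes the pore subunit of the ATP-sensitive channel of pericytes and vascular smooth muscle. It was not kept, with 73.6, 7.2 and 80.8 on the light pulse arrays and 105, 60.2 and 110 on the sham light pulse arrays. Beside it, all 7 kept endothelial and pericyte markers had a log2 fold change below 0 (median -0.33). Pecam1 was not kept, with 6.6 to 22.2 on the light pulse arrays and 3.3 to 10.6 on the sham light pulse arrays. The summed signals of all 8 measured markers did not overlap. They were 4575 to 5453 on the light pulse arrays and 5701 to 8025 on the sham light pulse arrays. The largest signals in these sums were those of Rgs5 and Slco1a4. Taken singly, only Flt1 and Rgs5 had every light pulse signal below every sham light pulse signal, as did 4.48% of all tested probe sets. For Cldn5, Slco1a4, Abcb1a, Pdgfrb and Vtn the groups overlapped. None of the 7 kept markers passed the adjusted test. The part of vessel content in the values of Kcnj8 was not tested.

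Of the tandem-pore leak channels, Kcnk1 and Kcnk2 were kept out of 8 genes. Kcnk1, which encodes the weakly active TWIK channel, had 568, 817 and 607 on the light pulse arrays, against 1045, 651 and 1018 on the sham light pulse arrays. Light pulse replicates 1 and 3 lay below all sham light pulse arrays and replicate 2 between them, for a log2 fold change of -0.43 (standard error 0.31, 95% interval -1.09 to 0.23). Kcnk2, the gene of the stretch- and lipid-sensitive TREK channel, had 183, 190 and 194 in light pulse SCN, against 201, 127 and 325 in sham light pulse SCN. The light pulse values lay inside the sham light pulse range, and the log2 fold change was -0.10 (standard error 0.45). Kcnk13 had its 3 light pulse values, 167, 79.9 and 91.4, above its sham light pulse values of 75.6, 43.7 and 69.8, but it was not kept. Kcnk3, Kcnk4, Kcnk5, Kcnk7 and Kcnk10 ranged from 2.0 to 121.8.

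**Figure D2:**
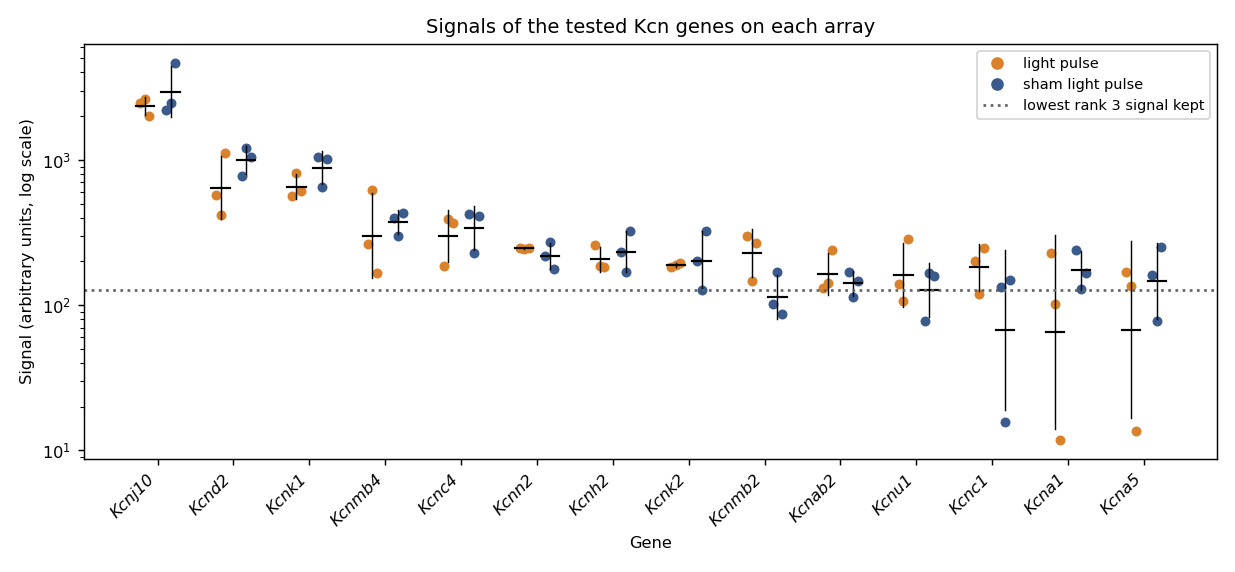
Hybridization signals (arbitrary units, log axis) of the 14 tested Kcn genes, with 1 point per array (3 light pulse arrays on the left, 3 sham light pulse arrays on the right of each gene). Short horizontal lines give each group's mean log2 signal, error lines its SD, and a dotted line the filter's cutoff, 128.1. The groups overlap for all 14 genes, and single low arrays at 11.8, 13.6 and 15.6 stand out for Kcna1, Kcna5 and Kcnc1.

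Set against the whole array, the comparison of light pulse with sham light pulse called 0 of the 14 Kcn probe sets higher and 0 lower at an adjusted p under 0.05 from limma, where it called 0.07% of the 10000 probe sets higher and 0.0% lower. At an unadjusted p under 0.05 it gave 0 of 14, against 4.27% of all (2.03% higher and 2.24% lower), and Cyber-T, the Bayesian test named in the methods, also gave 0 of 14. By fold 5 lay above and 9 below the sham light pulse, with a median log2 fold change of -0.18, while 5005 of all 10000 lay above and their median was 0.00. With the low signals included, the median over all 90 Kcn probe sets was 0.17 and that over all probe sets 0.07, so the sign of the median went with the filter. The 3 light pulse arrays lay all above or all below the 3 sham light pulse arrays for 0 and 0 of the 14 (5.55% and 4.48% of the tested probe sets). Over all 90 these counts were 2 and 2, Kcnh3 and Kcnk13 above and Kcnj14 and a probe set of Kcnk3 below, against 6.68% and 3.64% of all probe sets.

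The 14 comparisons differed in how much they could show. Fold changes were within 2-fold for 11 of 14 (95.3% of all tested probe sets), but the 95% interval lay inside 2-fold in both directions only for Kcnj10 and Kcnn2. At the other end, Kcna1, Kcna5 and Kcnc1 had intervals that reached past 8-fold in 1 direction. The median standard error of the log2 fold change was 0.45 over the 14 and 0.36 over all tested probe sets. A p that misses the threshold therefore does not show that these transcripts were alike after light pulse and sham light pulse.

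**Figure D3:**
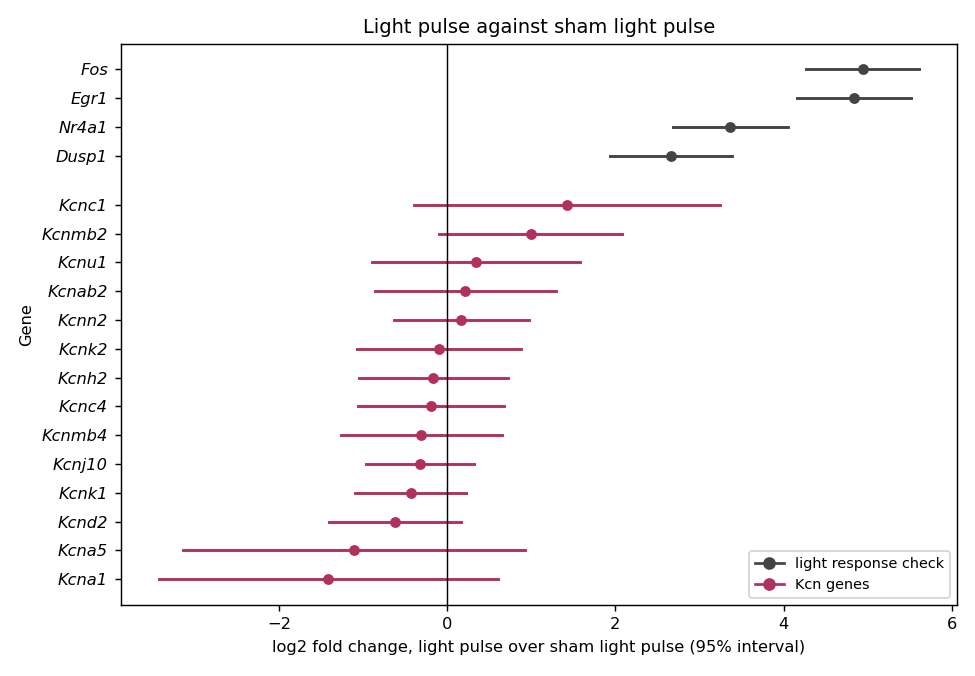
Log2 fold change of light pulse over sham light pulse, with 95% intervals from limma, for the 14 tested Kcn genes and for 4 light-induced genes. All 14 Kcn intervals include 0, from -1.41 for Kcna1 to 1.43 for Kcnc1, and Fos, Egr1, Nr4a1 and Dusp1 lie between 2.66 and 4.94.

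Probe sets of the same gene often disagreed in level. Of the 62 genes, 20 had more than 1 probe set, and 5 of the kept genes had a partner that was not kept. Kcnk1 had 568 to 1045 by its kept probe set over all 6 arrays and 37.2 to 105 by the other. Kcnd2 had 420 to 1204 by the kept one, 102 to 282 by the second and 5.2 to 157 by the third. For Kcnab2 the second probe set stayed between 2.0 and 42.1, for Kcnc4 between 5.7 and 103.4 and for Kcnmb2 between 6.0 and 127.8. No gene had more than 1 probe set among those tested, so no fold change could be checked by a second tested probe set. With no filter, the partners of Kcnk1, Kcnc4 and Kcnab2 had log2 fold changes of 0.56, 0.92 and -0.037, on the other side of 0 from the kept ones. That of Kcnmb2 had 0.20, on the same side. For Kcnd2 the second had 0.15, on the other side, and the third -0.92, on the same side. Their standard errors ran from 0.57 to 1.27, so these sides were not read as results. Given these differences in level, a channel at a low percentile may be read by a weak probe set. Low signals were not taken here as absence of a transcript.

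**Figure D4:**
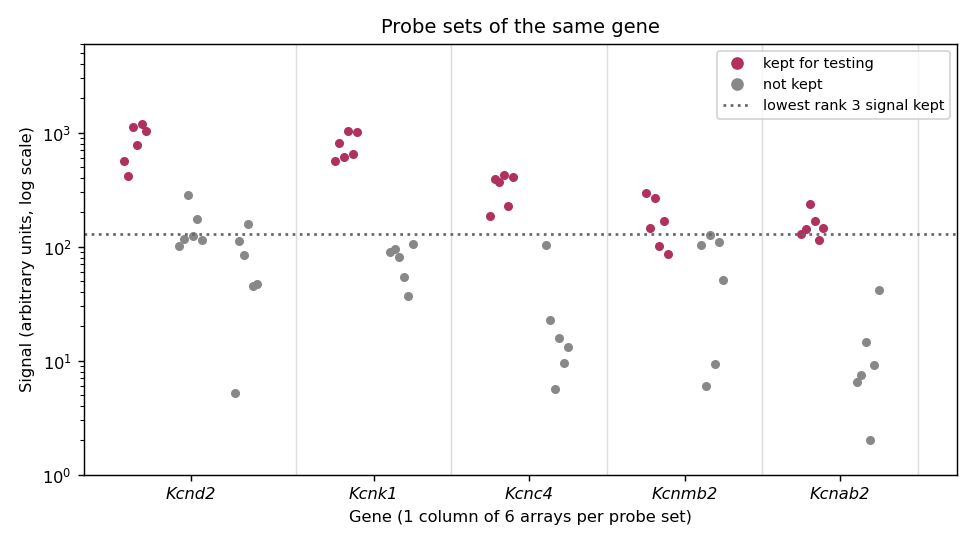
Hybridization signals (arbitrary units, log axis) of the 5 tested Kcn genes with more than 1 probe set, with 6 arrays in each column. A dotted line stands at the cutoff, 128.1. For Kcnk1 the kept probe set lies at 568 to 1045 and the other at 37.2 to 105.

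Low signals also varied more between arrays. The highest signal was a median of 2.72 times the lowest over the 6 arrays for the 14 kept Kcn probe sets, and 12.6 times for the 76 that were not kept. Over all probe sets these medians were 2.19 and 12.3. The within-group SD of the log2 signal had a median of 0.54 for the 14 and 0.42 for all tested probe sets. Of the 76, 64 stayed below 128.1 on every array, 9 reached it on 1 array and 3 on 2.

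A probe set each of Kcne2 and Kcnj1, channel genes of other tissues, was highest on light pulse replicate 3. Kcne2 encodes a beta subunit found in choroid plexus, and it had 39.1, 16.3 and 95.6 on the light pulse arrays, against 6.9, 27 and 30.1 on the sham light pulse arrays. Kcnj1, the inward rectifier gene of the kidney, had 104.8 on light pulse replicate 3 by 1 probe set and 2.8 to 6.9 on the other 5 arrays. Its other probe set was not high there, with 4.0 on light pulse replicate 3 and 1.8 to 6.1 on the other 5 arrays. Both genes were chosen after their values were seen, and neither reached 128.1. Of all 90 Kcn probe sets, 23 (25.6%) were highest on light pulse replicate 3, against 23.7% of all probe sets. The part of choroid plexus content in these values was not tested.

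**Figure D5:**
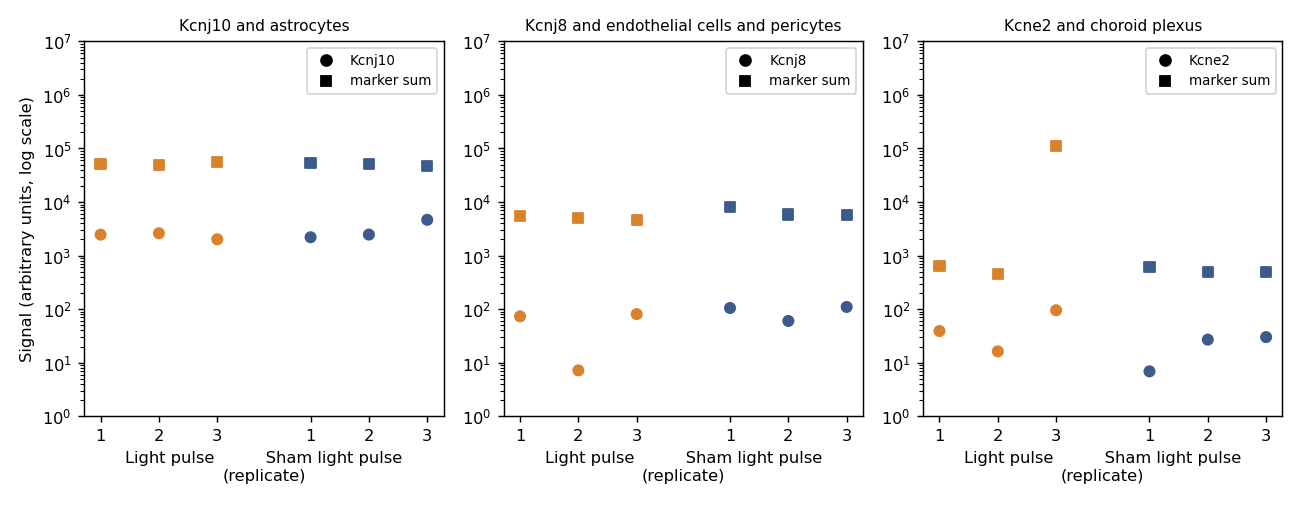
Hybridization signals (arbitrary units, log axis) of Kcnj10, Kcnj8 and Kcne2 (circles) and the summed signals of the marker genes of astrocytes, of endothelial cells and pericytes, and of choroid plexus (squares), with 1 point per array and light pulse arrays on the left. The astrocyte sums stay between 46671 and 55100, and the choroid plexus sum reaches 111010 on light pulse replicate 3.

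Genes that work with potassium channels were taken from a fixed list of 30, of which 19 were measured and 14 kept. None passed limma's test, 8 lay above and 6 below the sham light pulse, and the median log2 fold change was 0.10. Of the 14 kept, 1 had an unadjusted p under 0.05 from limma, Ank3 (0.0121), against 4.27% of all tested probe sets. Ank3, the ankyrin that anchors channels at the axon initial segment, had 1756, 911 and 1313 in light pulse SCN. These lay all below the 2252, 2530 and 2095 in sham light pulse SCN. That was a log2 fold change of -0.84 (standard error 0.29), with an adjusted p of 0.963 from limma. Among the kept partners only Ank3 lay all below and none all above, against 4.48% and 5.55% of all tested probe sets. Ank3 has 3 probe sets, and only the highest is given. Abcc8 was not kept but lay all above, with 133, 105 and 114 against 50.6, 70.0 and 103. Lgi1, a secreted partner of Kcna channels, had -0.91 (standard error 0.46), and Dpp6, which brings Kcnd channels to the membrane, had 0.07 (standard error 0.37). Hcn2 and Hcn3, pacemaker channel genes, had 0.40 and 0.27 (standard errors 0.46 and 0.41).

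The study asked whether light-induced genes share a conserved cAMP response element (CRE), which it sought with scoring matrices over longer upstream sequence of several mammals. Here only exact letters were looked for, in mouse promoters close to the start. The study counted its positions from the start codon, and the positions below were not set beside those. RefSeq promoters on GRCm38.p6, 250 bases before to 50 after each start, were matched by gene ID for 50 of the 62 genes and 11 of the 14 kept. The full element, TGACGTCA, was in 0 of the 68 promoters of these genes and in 1.79% of all 32851 promoters. The shorter element, TGACG on either strand, which the full element contains, was in 16.2% of the 68 and in 20.8% of all. Counted by gene, it was found for 11 of the 50 (22.0%), against 23.0% of all 27025 genes, and 3 of the 11 were kept. Their stretches are shown because these channels hold the shorter element and were also tested for a light response, and capitals mark TGACG or its reverse complement CGTCA.
Kcnc1, chr7:46396218-46396263, plus strand: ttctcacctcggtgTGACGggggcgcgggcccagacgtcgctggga
Kcnc4, chr3:107458931-107458989, minus strand: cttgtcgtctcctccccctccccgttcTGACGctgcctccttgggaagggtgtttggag
Kcnab2, chr4:152477682-152477751, minus strand: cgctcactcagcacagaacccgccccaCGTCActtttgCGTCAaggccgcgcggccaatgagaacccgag
The first base in capitals lay 236 bases before the start for Kcnc1 and 64 for Kcnc4, and for Kcnab2 the 2 matches began at 175 and 164. As given above, these 3 genes had log2 fold changes of 1.43, -0.19 and 0.22, and none passed the test. A match is a description of the letters and not a site in use.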

How the data were processed

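Signals were deposited by the authors as MAS5 signal intensity per probe set (the Affymetrix Microarray Suite algorithm, which the submitters also name), on a linear scale and scaled per array, with trimmed mean signals from 492.3 to 495.6. With 3 arrays per group, their number limits the precision. Groups and replicate numbers came from the sample titles. Symbols came from the platform annotation, and all 62 Kcn genes matched a RefSeq gene table by Entrez ID.

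The log2 signal with no offset was compared with limma 3.58.1 in R 4.3.3 (intensity trend, two-sided, Benjamini-Hochberg over 10000 probe sets, threshold 0.05). The 10000 had the highest rank 3 signal, in place of the present calls of the methods, which were not used here. The fit was tested on simulated data. Members, lists and tests were chosen with earlier results of these data known. Named were called genes, the kept gene of highest signal in each subfamily, the 5 smallest unadjusted p in each direction, genes without overlap, channels of known SCN role, and those with 1 array over 4-fold above the others. A gene stands by its probe set of highest mean log2 signal. Equal replicate numbers were checked for shared deviations, and no pairing was found (correlations 0.11, -0.21 and -0.14). Alternatives were no or a stricter filter, other scaling, an offset of 50, no trend, Cyber-T written anew, the replicate block, no probe sets of shared targets, and each array left out.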

Additional observations from a re-analysis of the deposited data

How the results depend on the processing

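No Kcn probe set and no gene of the potassium channel partner list passed an adjusted p of 0.05 under any alternative run, and no fold change of the 14 genes changed its side of the threshold. With the replicate number as a block, which the data did not bear out as a pairing, 0 Kcn probe sets were called, 0 had an unadjusted p under 0.05 and the median log2 fold change stayed at -0.18. The number at an unadjusted p under 0.05 was 1 without the intensity trend (Kcnmb2) and 0 to 1 with each array left out (Kcna1 without light pulse replicate 1, Kcnmb2 without light pulse replicate 2 or sham light pulse replicate 2, and Kcnd2 without light pulse replicate 3). The median log2 fold change was 0.17 with no filter, over 90 probe sets instead of 14, -0.43 with the stricter filter of 5000, which kept 3, and -0.44 to 0.015 with each array left out. With each array left out the fits kept the same 10000 probe sets. The filter itself, run anew on 5 arrays, would keep 15 Kcn probe sets, the added one being a second of Kcnd2, which with no filter had a log2 fold change of 0.15. In every fit but that with no filter no gene thus had more than 1 probe set. Of 197 fold changes recomputed for single genes, 9 turned their sign, each with an array left out: Kcna5 ran from -1.77 to 0.050, Kcnab2 from -0.054 to 0.38, Kcnc4 from -0.48 to 0.15, Kcnh2 from -0.40 to 0.071, Kcnj10 from -0.53 to 0.011, Kcnk2 from -0.43 to 0.25, Kcnmb4 from -0.84 to 0.12 and Kcnu1 from -0.065 to 0.65. The others kept their sign, with -2.32 to -0.18 for Kcna1, 0.37 to 2.00 for Kcnc1, -1.02 to -0.31 for Kcnd2, -0.65 to -0.31 for Kcnk1, 0.79 to 1.30 for Kcnmb2 and 0.019 to 0.32 for Kcnn2. An offset of 50 gave -0.70 for Kcna1, -0.55 for Kcna5 and 0.81 for Kcnc1, and quantile normalization 0.11 for Kcnab2, -0.16 for Kcnk2 and 0.10 for Kcnn2. No other alternative with all 6 arrays moved a gene by over 1.5 times.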
